A study of Danio rerio with 12 samples.

Results

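Small leucine-rich proteoglycans are a family of secreted matrix proteins, and 9 of their zebrafish genes were taken by name from the deposited tables: lum, dcn, bgna, bgnb, fmoda, fmodb, kera, ogna and prelp. Of the 31962 genes listed, 8 carried one of these names, and ogna was not found under that name. Rows were matched by name alone, but the 9 names were chosen with earlier results of these data known. RNA of the white skeletal muscle along the back was sequenced in 12 libraries, 3 from each of 4 groups: exercised Gr mutants, non-exercised Gr mutants, exercised wild-type fish and non-exercised wild-type fish. The Gr mutants carry the allele gr s357, a single base change in the part of the glucocorticoid receptor (gene nr3c1) that contacts DNA. This is the receptor through which cortisol regulates transcription, and the allele is carried by the whole fish rather than by muscle alone. The mutant line was made available by another laboratory, while the wild-type fish came from the Leiden facility. The study also describes the mutants as bigger than wild-type fish. Line background and body size therefore cannot be told apart from the mutation. Exercised fish of both genotypes swam at 0.4 m/s during 4 weeks, 6 h a day and 5 days a week, while non-exercised fish of both genotypes stayed at a flow of 0.1 m/s. All groups shared one water supply and feeding regime. Each exercise level had a single tunnel that held both genotypes, which were read after the experiment, so the tunnel and exercise cannot be told apart. The methods give an age of 3 months for the wild-type fish when they were supplied, no separate age for the mutants and no sex. They count 3 fish per group, and the tests measure the spread between these samples.

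Decorin (dcn), biglycan (bgna and bgnb), lumican (lum), fibromodulin (fmoda and fmodb), keratocan (kera), prolargin (prelp) and osteoglycin (ogna) share a core of leucine-rich repeats that binds collagen. In vertebrate connective tissue they set the width and spacing of collagen fibrils, and several of them hold growth factors of the TGF-beta family in the matrix. Decorin and biglycan carry chondroitin or dermatan sulfate chains, while lumican, fibromodulin and keratocan carry keratan sulfate or shorter sugar chains. In skeletal muscle these proteins are made mainly by the fibroblasts of the connective tissue around the fibres and in the septa between muscle segments, and much less by the fibres themselves.

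The count on genes per library ranged between 7688323 and 12315951 in exercised Gr mutants, 12126957 and 13894240 in non-exercised Gr mutants, 12038120 and 12936797 in exercised wild-type fish, and 11076993 and 13807501 in non-exercised wild-type fish. Levels are given as CPM, counts relative to library size after TMM normalization, which scales libraries on the bulk of their genes. The tissue was checked with 19 fast muscle markers, which summed to between 174498 and 368050 CPM in every library. The mutated gene nr3c1 still gave 36.9 to 66.7 CPM in the mutants and 27.4 to 59.8 CPM in wild-type fish, and a point mutation need not lower the transcript, so this level checks no label. A gene is called changed here at an adjusted P under 0.05 in edgeR's quasi-likelihood test, with adjustment over all genes tested. A rise given as a fold is the ratio of the mean CPM of both sides. The log2 fold change beside it comes from the fitted model and can differ from that ratio.

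Lumican showed the clearest pattern, with every Gr mutant library above every wild-type library. In exercised Gr mutants lum (ENSDARG00000045580) was at 58.5, 70.4 and 55.8 CPM, and in non-exercised Gr mutants at 38.1, 35.4 and 50.0 CPM. It was at 28.9, 18.0 and 30.0 CPM in the exercised wild-type fish and at 13.4, 10.2 and 8.72 CPM in non-exercised wild-type fish. The 4 groups thus formed 4 steps without overlap, from the exercised mutants at the top to the non-exercised wild-type fish at the bottom. Counts behind these levels were between 99 and 709 per library.

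Over both exercise levels lum rose 2.82-fold in Gr mutants, 51.4 ± 13.2 CPM against 18.2 ± 9.28 CPM in wild-type fish (SD, n = 6 each; log2 fold change 1.59, SE 0.20, 95% interval 1.16 to 2.03, adjusted P = 0.00114 in edgeR). Of all genes tested in this comparison, 7.93% were called (3.3% as higher) and 1.26% were higher in all 6 mutant libraries than in all 6 wild-type libraries. Called members were 2 of the 5 that could be tested, lum and dcn. The call for lum was kept when any single library was left out and under every other setting tried. Within exercised fish the rise was 2.40-fold (61.5 ± 7.79 against 25.6 ± 6.64 CPM, n = 3 each, log2 fold change 1.22, SE 0.26, adjusted P = 0.0456 in edgeR), the only member among the 3.02% of genes called there. Within non-exercised fish it was 3.82-fold (41.2 ± 7.77 against 10.8 ± 2.42 CPM, n = 3 each, log2 fold change 1.94, SE 0.27, adjusted P = 0.0438 in edgeR), again the only member, in a comparison that called 0.233% of genes. Both of these calls lie close to the threshold: the first was lost with any of the 6 libraries left out (adjusted P 0.0507 to 0.125) and with library totals in place of TMM factors (0.114), and the second with 4 of 6 (up to 0.247).

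**Figure D1:**
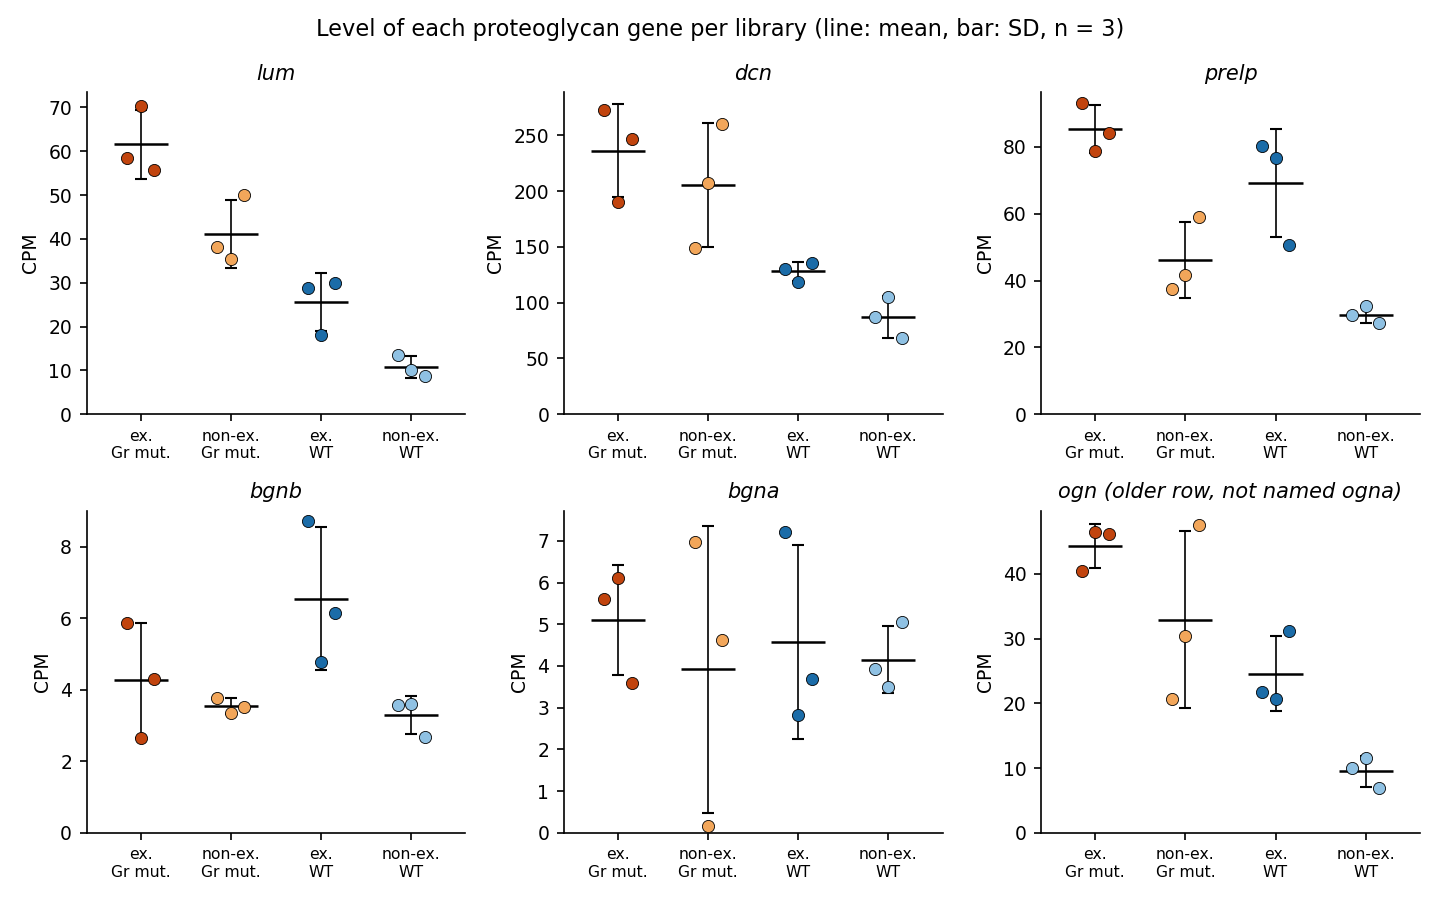
Level in CPM (vertical axes, from 0) of lum, dcn, prelp, bgnb, bgna and the osteoglycin row ogn in each library, by group along the horizontal axes (ex., exercised; non-ex., non-exercised; Gr mut., Gr mutant; WT, wild-type). Points are libraries, lines are means and bars are the SD of 3 libraries. All 6 Gr mutant libraries lie above all 6 wild-type libraries for lum (lowest mutant 35.4, highest wild-type 30.0 CPM) and dcn (148.6 and 135.5 CPM), while prelp separates mainly by exercise.

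Decorin, which binds collagen fibrils and TGF-beta, had the most counts of the family and followed genotype in the same direction. The level of dcn (gene ENSDARG00000012066) was 272.4, 190.3 and 246.4 CPM in exercised Gr mutants and 148.6, 207.3 and 259.8 CPM in non-exercised Gr mutants. In exercised wild-type fish it was 130.5, 118.9 and 135.5 CPM, and in non-exercised wild-type fish 87.3, 105.4 and 68.2 CPM. All 6 mutant libraries were above all 6 wild-type libraries, whereas the exercised and non-exercised mutants overlapped.

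Over both exercise levels dcn rose 2.05-fold in Gr mutants, 220.8 ± 47.2 CPM against 107.7 ± 26.1 CPM in wild-type fish (SD, n = 6 each; log2 fold change 1.06, SE 0.19, 95% interval 0.66 to 1.46, adjusted P = 0.00682 in edgeR), a call kept in all 12 omissions of a library. With 3 libraries a group the same difference did not pass the test. It was 0.84 (SE 0.22) on the log2 scale in exercised fish (adjusted P = 0.0763 in edgeR) and 1.25 (SE 0.31) in non-exercised fish (adjusted P = 0.142 in edgeR), and the groups did not overlap in either. Of all genes, 12.5% in exercised and 10.7% in non-exercised fish were higher in mutants without overlap. DESeq2 called dcn beside lum in both (adjusted P = 0.0111 and 0.0075), among 6.69% and 4.84% of genes.

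The genes lum and dcn are direct neighbours in the zebrafish genome: in RefSeq's table for the assembly GRCz12tu the protein-coding genes epyc, kera, lum and dcn follow each other in this order. Keratocan, best known from the cornea, was almost silent in muscle. The counts of kera were 9, 4 and 2 in exercised Gr mutants, 2, 2 and 0 in non-exercised Gr mutants, 1, 0 and 0 in exercised wild-type fish and 1, 0 and 1 in non-exercised wild-type fish. Of the 22 counts in all, 15 lay in exercised Gr mutants, against 1 in exercised wild-type fish, a ratio of 22.3 with an exact 95% counting interval of 3.43 to 937, which leaves out the spread between fish. The interval was worked out for this pair of groups alone, which includes the group with the most counts, 9 of them in 1 library. It is therefore no test of a difference. No library reached 10 counts, so kera was not tested beside the other members, and without the filter on low counts it did not pass in exercised fish (adjusted P = 0.111 in edgeR). Markers of cartilage, bone and scale summed to 69.1 to 224 CPM in exercised and 15.4 to 48.9 CPM in non-exercised Gr mutants. In exercised and non-exercised wild-type fish they summed to 35.3 to 80.3 and 31.9 to 78.6 CPM. With exercise over both genotypes 8 of 8 tested had a fold change above 0 (median 0.77 on the log2 scale beside -0.01 over all genes), with none called in edgeR. Within 1 genotype their median was 1.42 in Gr mutants and 0.14 in wild-type fish, over 6 tested in each. At an unadjusted P under 0.05 in edgeR 4 were higher in Gr mutants and 2 in wild-type fish, beside 4.88% and 7.32% of genes. DESeq2 called 2 with exercise over both genotypes, beside 4.83% of genes. For the mutation it called 2 higher in exercised fish, beside 6.69% of genes, and 1 lower in non-exercised fish, beside 4.84%. The part of these markers in the kera counts and in the exercise comparisons of other members was not tested. Epiphycan (epyc) gave 1 to 12 counts per library with 13 in exercised Gr mutants, 26 in non-exercised Gr mutants, 16 in exercised wild-type fish and 17 in non-exercised wild-type fish in all.

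Prolargin, which ties basement membranes to the collagen beneath them, went with exercise instead. The level of prelp was 93.2, 78.8 and 84.3 CPM in exercised Gr mutants, against 37.6, 41.8 and 59.0 CPM in non-exercised Gr mutants. It was 80.4, 76.7 and 50.7 CPM in exercised wild-type fish, against 29.6, 32.5 and 27.3 CPM in non-exercised wild-type fish. Within each genotype every exercised library was above every non-exercised one, as for 9.11% of all genes in Gr mutants and 10.4% in wild-type fish. Over all 12 libraries the only overlap was that of one exercised wild-type library at 50.7 CPM with one non-exercised mutant library at 59.0 CPM.

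Over both genotypes prelp rose 2.04-fold with exercise, 77.3 ± 14.3 CPM against 38.0 ± 11.6 CPM without (SD, n = 6 each; log2 fold change 1.05, SE 0.17, 95% interval 0.69 to 1.42, adjusted P = 0.0172 in edgeR), and lum rose 1.68-fold (43.6 ± 20.7 against 26.0 ± 17.4 CPM, log2 fold change 0.91, SE 0.20, adjusted P = 0.0439 in edgeR). These 2 of 5 members stood in a comparison that called 1.24% of all genes, 0.76% as higher. The call for prelp was lost without replicate 2 of the non-exercised wild-type fish (adjusted P = 0.0525) and with library totals (0.0614), while that for lum was lost in 11 of 12 omissions (up to 0.103) and with library totals (0.202). Without the filter on low counts, and with the replicate number as a block, not both of these genes were called. The use of library totals moved the median of all genes in this comparison by -0.21 on the log2 scale, and relative to that median prelp was then at 1.1 and lum at 0.96.

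Within one genotype exercise called none of the 5 members in edgeR. In wild-type fish, where 0.37% of all genes were called, 4 members had an unadjusted P under 0.05, beside 13.9% of genes: prelp at a log2 fold change of 1.22 (SE 0.22, adjusted P = 0.0764), lum at 1.26 (SE 0.27, adjusted P = 0.109), bgnb at 1.01 (SE 0.28, adjusted P = 0.177) and dcn at 0.57 (SE 0.21, adjusted P = 0.291), and DESeq2 called 2 of them, lum and prelp, with 2.71% of genes. In Gr mutants, where edgeR called 0 of 14584 genes (0.0%) and DESeq2 105 (0.72%), 2 members had an unadjusted P under 0.05, beside 10.5% of genes, prelp at 0.89 (SE 0.27, adjusted P = 0.427) and lum at 0.58 (SE 0.26, adjusted P = 0.472). All 5 members had fold changes above 0 in either genotype, beside 48.3% of genes in Gr mutants and 52.3% in wild-type fish. Their median was 0.39 in Gr mutants and 1.01 in wild-type fish on the log2 scale, beside -0.02 and 0.03 over all genes. With library totals dcn, bgnb and bgna were at or below 0 in the mutants (-0.10, -0.07 and -0.01), where the median of all genes was -0.39.

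The mutation did not pass the test for prelp, although the non-exercised mutants lay above the non-exercised wild-type fish without overlap. The log2 fold change of prelp in mutants was 0.27 in exercised fish (95% interval -0.26 to 0.79, adjusted P = 0.581 in edgeR), 0.64 in non-exercised fish (0.07 to 1.21, adjusted P = 0.242) and 0.47 over both (0.10 to 0.83, adjusted P = 0.104). For dcn it was exercise that did not pass, at 0.38 over both genotypes (95% interval -0.02 to 0.78, adjusted P = 0.354 in edgeR).

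**Figure D2:**
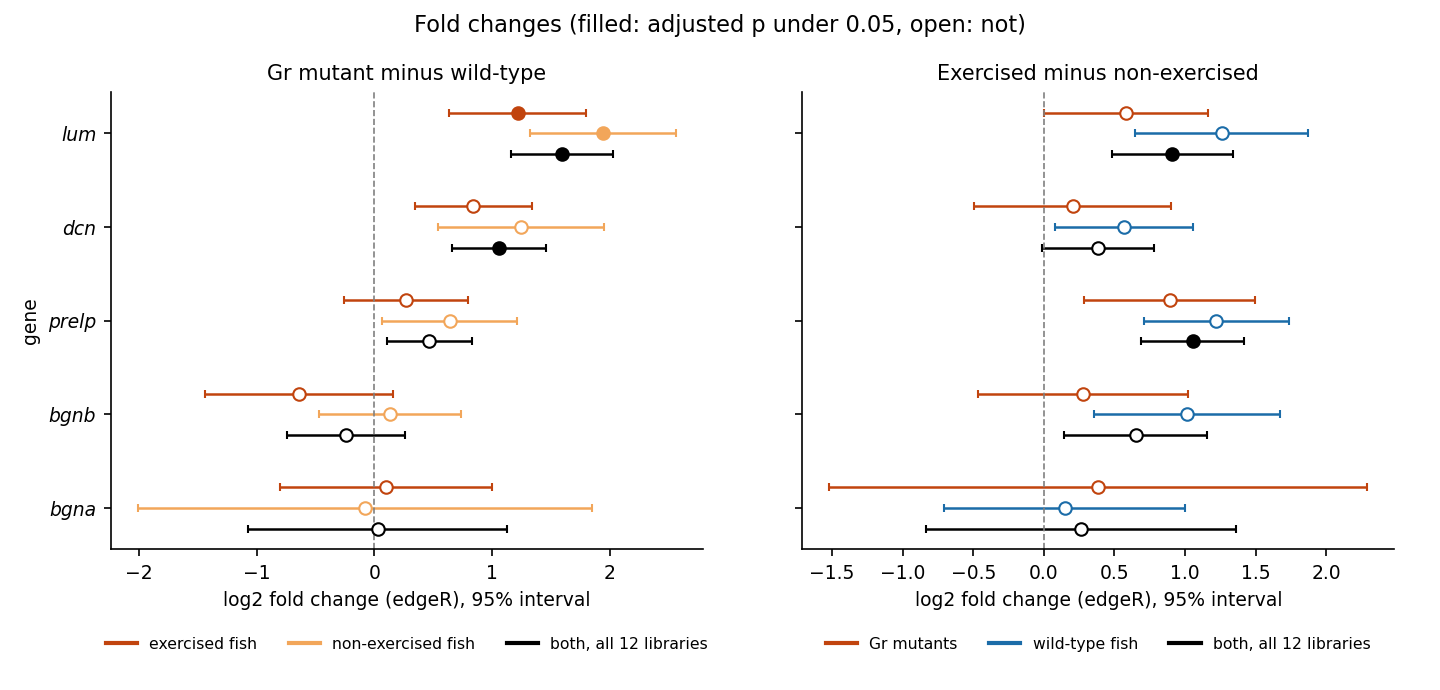
Log2 fold changes from edgeR (horizontal axes) with 95% intervals for the 5 tested members (vertical axes), Gr mutant minus wild-type on the left and exercised minus non-exercised on the right. Filled points have an adjusted P under 0.05 and black points use all 12 libraries. On the left the black points of lum (1.59) and dcn (1.06) are filled, on the right those of prelp (1.05) and lum (0.91).

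The question whether the response to exercise depends on the receptor was put to the interaction term, which is the log2 fold change with exercise in mutants minus that in wild-type fish. No member was called, nor was any of 16056 genes in edgeR (0.0%), although 8.39% had an unadjusted P under 0.05 and DESeq2 called 32 genes (0.199%), no member among them. The interaction was -0.67 for lum (95% interval -1.45 to 0.10, adjusted P = 0.646), -0.72 for bgnb (-1.66 to 0.23, adjusted P = 0.694), -0.36 for dcn (-1.15 to 0.44, adjusted P = 0.842), -0.33 for prelp (-1.05 to 0.40, adjusted P = 0.842) and 0.25 for bgna (-2.02 to 2.51, adjusted P = 0.975). The intervals for lum, dcn and prelp still allow a response in mutants that is smaller than in wild-type fish by more than 1 on the log2 scale.

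Biglycan, the nearest relative of decorin, is present as a pair of zebrafish genes that were both low in muscle, and neither was called in any of the 7 comparisons. The level of bgnb was 5.85, 2.64 and 4.29 CPM in exercised Gr mutants, 3.78, 3.35 and 3.51 CPM in non-exercised Gr mutants, 8.71, 4.77 and 6.15 CPM in the exercised wild-type fish and 3.58, 3.60 and 2.67 CPM in non-exercised wild-type fish. The exercised wild-type libraries were thus all above the non-exercised ones, as for 10.4% of all genes, and those of mutants overlapped, a difference between genotypes that did not pass the interaction test (adjusted P = 0.694 in edgeR). Over both exercise levels the mutants were at -0.24 on the log2 scale for bgnb (95% interval -0.75 to 0.26, adjusted P = 0.549 in edgeR), an interval that lies below those of lum and dcn. The level of bgna was 5.61, 6.10 and 3.60 CPM in exercised Gr mutants and 6.96, 0.17 and 4.62 CPM in non-exercised Gr mutants. It was 7.22, 2.82 and 3.68 CPM in the exercised wild-type fish and 3.92, 3.50 and 5.04 CPM in non-exercised wild-type fish. Replicate 2 of the non-exercised Gr mutants held 3 counts of bgna where the other libraries held 26 to 118, and without it the log2 fold change of the mutation in non-exercised fish was 0.50 in place of -0.08. The adjusted P of bgna was 0.861 or more in all 7 comparisons.

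Fibromodulin, abundant in tendon and cartilage of other vertebrates, was near or below the limit of these libraries. The counts of fmoda were 8, 5 and 2 in exercised Gr mutants, 2, 6 and 7 in non-exercised Gr mutants, 2, 1 and 2 in exercised wild-type fish and 5, 2 and 2 in non-exercised wild-type fish. In CPM the exercised Gr mutants (0.277 to 0.825) lay above the exercised wild-type fish (0.0973 to 0.15), but the lowest mutant library held 2 counts, as did 2 of those wild-type libraries. The gene stayed below the filter, and without the filter it did not pass in exercised fish (adjusted P = 0.285 in edgeR). The non-exercised Gr mutants overlapped with both the exercised mutants and the non-exercised wild-type fish. Its paralogue fmodb had no count in any of the 12 libraries, and a count of 0 allows up to 3 counts per library. Of the 8 named genes, 5 therefore passed the filter, and 3 (fmoda, fmodb and kera) did not.

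Osteoglycin is listed under older names. The row ogn (ENSDARG00000044132) carries a symbol that RefSeq gives as a synonym of ogna, and a second row, OGN (1 of 2) (ENSDARG00000031489), shares the symbol OGN with it in the gene name table used here. Both lie outside the 9 names and were taken up after their values had been seen. The level of ogn was 40.4, 46.5 and 46.1 CPM in exercised Gr mutants, 20.6, 30.4 and 47.6 CPM in non-exercised Gr mutants, 21.8, 20.6 and 31.2 CPM in the exercised wild-type fish and 9.96, 11.6 and 6.94 CPM in non-exercised wild-type fish. The group means stood in the order seen for lum, but neighbouring groups overlapped, and only the non-exercised wild-type fish lay apart from all others. Over both exercise levels ogn rose 2.27-fold in mutants (38.6 ± 10.9 against 17.0 ± 9.14 CPM, n = 6 each, log2 fold change 1.32, SE 0.25, adjusted P = 0.00928 in edgeR), and all 12 omissions kept the call. Its interaction of exercise and genotype was -0.94 (95% interval -1.87 to -0.008, adjusted P = 0.591 in edgeR) and was not called. The second row did not follow: OGN (1 of 2) was at 38.1, 28.9 and 26.6 CPM in exercised Gr mutants, 7.43, 14.1 and 47.7 CPM in non-exercised Gr mutants, 35.7, 45.9 and 38.0 CPM in the exercised wild-type fish and 15.9, 15.5 and 23.5 CPM in non-exercised wild-type fish, with a log2 fold change of -0.02 in mutants (95% interval -0.79 to 0.76, adjusted P = 0.986 in edgeR).

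The members also shifted against each other inside single libraries, where no normalization enters. Gene length bears on the value of such a ratio but not on its change between libraries, and these ratios were chosen after their values had been seen, so no test is given. There were 0.627, 0.893 and 0.662 counts of lum per count of prelp in exercised Gr mutants and 1.01, 0.846 and 0.848 in non-exercised Gr mutants, against 0.359, 0.234 and 0.593 in exercised and 0.454, 0.313 and 0.320 in non-exercised wild-type fish. All 6 mutant libraries were thus above all 6 wild-type libraries. How many other pairs of genes separate the genotypes in this way was not counted. Counts of prelp per count of dcn were 0.342 to 0.414 in exercised Gr mutants and 0.202 to 0.253 in non-exercised Gr mutants, which did not overlap, and 0.374 to 0.645 in exercised and 0.308 to 0.40 in non-exercised wild-type fish, which did. Counts of lum per count of dcn overlapped more, at 0.215 to 0.370 and 0.171 to 0.256 in exercised and non-exercised Gr mutants and 0.151 to 0.221 and 0.0966 to 0.154 in exercised and non-exercised wild-type fish.

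**Figure D3:**
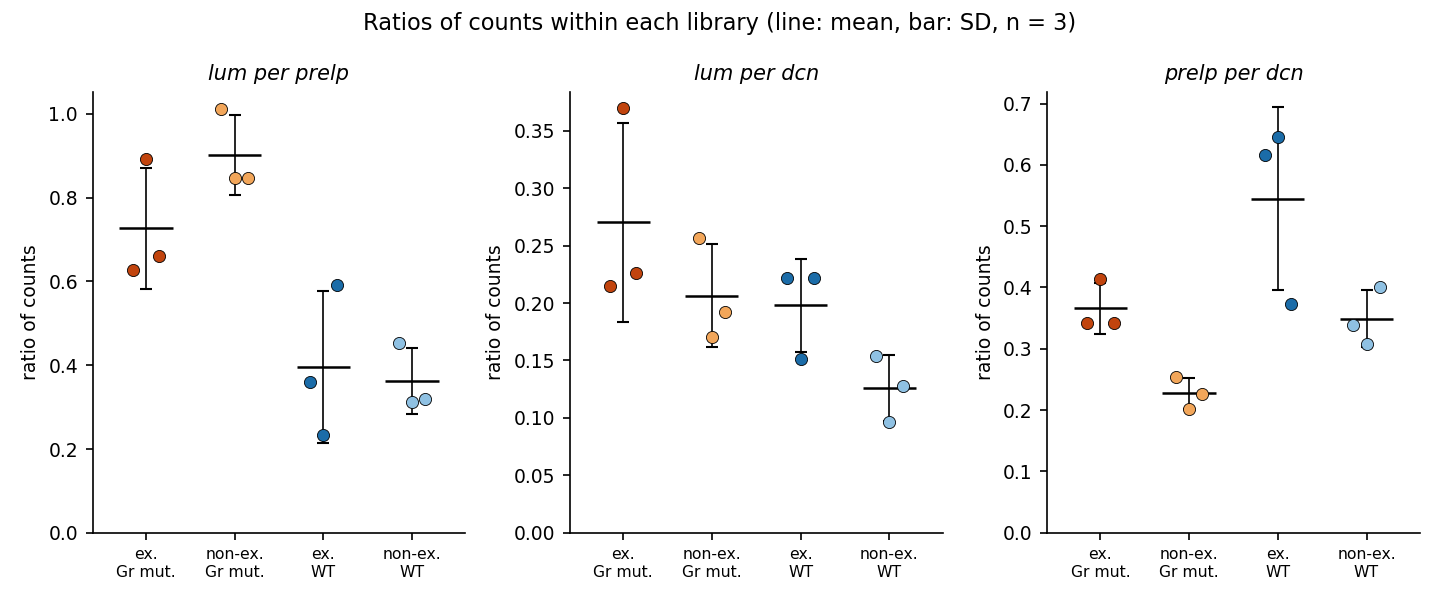
Counts of lum per count of prelp, of lum per count of dcn and of prelp per count of dcn (vertical axes, ratio of counts, from 0) in each library, by group. Points are libraries, lines are means and bars are the SD of 3 libraries. For lum per prelp all 6 Gr mutant libraries (0.627 to 1.01) lie above all 6 wild-type libraries (0.234 to 0.593). These ratios were chosen after their values had been seen.

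Since these genes belong to connective tissue, the levels were set beside 19 markers of tendon and connective tissue fibroblasts, none of them a member. Their summed level was 877, 668 and 767 CPM in exercised Gr mutants, 296, 445 and 825 CPM in non-exercised Gr mutants, 647, 561 and 630 CPM in the exercised wild-type fish and 288, 317 and 235 CPM in non-exercised wild-type fish. All 3 exercised wild-type libraries were above the non-exercised ones, and the non-exercised mutants ranged from the level of non-exercised wild-type fish to that of exercised mutants. In bulk tissue, more cells of a type and more RNA per cell cannot be told apart. Of 17 markers tested over both exercise levels, 17 had a fold change above 0 in mutants, with a median of 0.79 beside 0.06 over all genes, and 3 were called: postna (0.92), a periostin, mkxa (1.62), a tendon transcription factor, and fap (1.1), a fibroblast surface protease. Among all genes 3.3% were called higher there. With exercise over both genotypes 12 of 17 were above 0, with a median of 0.40 beside -0.01, and none was called in edgeR. At an unadjusted P under 0.05 in edgeR there were 5, beside 15.1% of genes, and DESeq2 called 2, beside 4.83% of genes. In wild-type fish alone postnb, the second periostin and the source of most counts of the list, rose with exercise (log2 fold change 1.56, adjusted P = 0.0248 in edgeR), a call lost in all 6 omissions. The part of the fibroblast markers in the rise of prelp with exercise and of dcn and lum in Gr mutants was not tested.

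The marker sum rests largely on postnb, which held 38.7 to 74.3% of it. In replicate 1 of the non-exercised Gr mutants the sum of 296 CPM lay inside the range of non-exercised wild-type fish (235 to 317 CPM), with lum at 38.1 CPM against 8.72 to 13.4 CPM in those fish. There postnb was at 114 CPM against 130 to 166 CPM, but the sum of the other 18 markers was 181 CPM against 93.4 to 158 CPM, and postna (62.8 against 25.9 to 50.4 CPM), fap (5.07 against 1.48 to 3.60 CPM) and mkxa (1.3 against 0.297 to 0.925 CPM) were above those fish as lum was. Divided by the sum of all 19 markers, lum was at 66.6 to 105 CPM per 1000 CPM of markers in exercised Gr mutants, 60.6 to 129 in non-exercised Gr mutants, 32.1 to 47.7 in exercised wild-type fish and 32.1 to 46.7 in non-exercised wild-type fish. All mutant libraries were above all wild-type libraries in this ratio, as for 0.081% of the genes tested over both exercise levels. Genotypes overlapped when postnb was left out of the sum, a choice made after seeing the data. The ratio of lum to the other 18 markers was 178 to 259 in exercised and 140 to 210 in non-exercised Gr mutants, against 125 to 160 in exercised and 67.2 to 93.4 in non-exercised wild-type fish. With all 19 markers the ratio for dcn was 285 to 321 in exercised and 315 to 503 in non-exercised Gr mutants, against 202 to 215 in exercised and 291 to 332 in non-exercised wild-type fish, with an overlap of the genotypes. Without postnb the ratio for dcn was 700 to 871 in exercised and 819 to 907 in non-exercised Gr mutants. In exercised and non-exercised wild-type fish it was then 594 to 825 and 552 to 731. With that sum the genotypes overlapped in exercised fish but not in non-exercised fish. For prelp the ratio to all 19 markers was 106 to 118 and 71.5 to 127 in exercised and non-exercised Gr mutants, against 80.4 to 137 and 102 to 116 in exercised and non-exercised wild-type fish, so no group stood apart with all 19. With postnb left out, the ratio for prelp was 283 to 298 in exercised and 166 to 208 in non-exercised Gr mutants, without overlap. In wild-type fish it was then 270 to 532 with exercise and 187 to 292 without, with an overlap. Macrophage and leukocyte markers were also uneven, with a summed level of 1632, 1435 and 261 CPM in non-exercised Gr mutants against 155 to 279 CPM in non-exercised wild-type fish. All 9 of these markers had a fold change above 0 in non-exercised mutants (median 2.03 on the log2 scale), but none was called in edgeR. At an unadjusted P under 0.05 in edgeR there were 9, beside 17.2% of genes, and DESeq2 called 4, beside 4.84% of genes. The part of macrophages and leukocytes in the lum result was not tested. Blood was uneven too, as 8 erythrocyte markers summed to 244 to 3110 CPM (median 586) in exercised wild-type fish and 190 to 434 CPM (median 319) in non-exercised wild-type fish. All 8 had a fold change above 0 with exercise there (median 1.90 on the log2 scale), beside 52.3% of genes. None was called in edgeR or by DESeq2, and 4 had an unadjusted P under 0.05 in edgeR, beside 13.9% of genes. The part of blood in the exercise comparison was not tested. For the mutation in exercised fish, where lum was called, the same markers summed to 358 to 395 CPM (median 360) in Gr mutants against 244 to 3110 CPM (median 586) in wild-type fish. There 0 of 8 had a fold change above 0 (median -1.81), with none called in edgeR. At an unadjusted P under 0.05 in edgeR there were 6, beside 19.5% of genes, and DESeq2 called 1, beside 6.69% of genes.

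Fast muscle markers also differed in that comparison. Of 18 tested, 2 rose in exercised Gr mutants, pvalb1, a parvalbumin that binds calcium (log2 fold change 2.54), and actn3a, an actinin of the Z-disc (1.19), and 2 fell, atp2a1, the calcium pump of the sarcoplasmic reticulum (-1.98), and tnni2a.4, a troponin I (-1.83), all called in edgeR. Among all genes 0.652% were called higher and 2.37% lower there. Of the 18, 13 had a fold change above 0, beside 49.4% of genes, with a median of 0.62 on the log2 scale beside -0.01. At an unadjusted P under 0.05 in edgeR 10 were higher and 3 lower, beside 19.5% of genes in either direction. DESeq2 called 6 of them higher and 2 lower, with 6.69% of all genes called. With single libraries left out, the call of pvalb1 was kept in 4 of 6 omissions, that of tnni2a.4 in 2 and those of actn3a and atp2a1 in 1 each. The part of blood and of muscle fibre genes in the lum result was not tested.

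**Figure D4:**
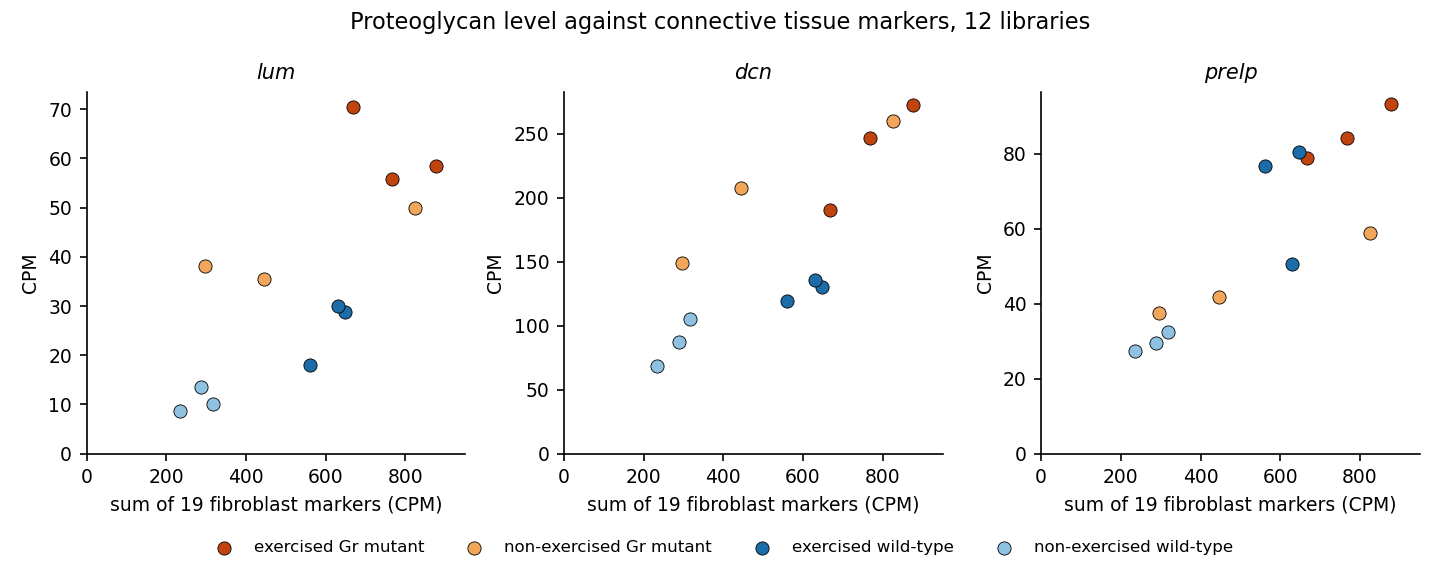
Level of lum, dcn and prelp (vertical axes, CPM) against the summed level of 19 tendon and connective tissue fibroblast markers (horizontal axes, CPM) in 12 libraries coloured by group. The sum rests largely on postnb (38.7 to 74.3% of it). The 6 Gr mutant points of lum lie at 35.4 CPM or more and the wild-type points at 30.0 CPM or less, while for prelp the points of all groups lie along one band. Relative to the sum without postnb, prelp did not overlap between exercised and non-exercised Gr mutants.

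The fibril-forming collagens that these proteoglycans bind were taken from a list of 12 genes. Over both exercise levels 4 of 11 tested collagens rose in Gr mutants, col1a1a (log2 fold change 1.77, adjusted P = 0.0186 in edgeR), col1a2 (1.47, adjusted P = 0.029), col1a1b (1.32, adjusted P = 0.0453) and col2a1b (1.11, adjusted P = 0.0437), and the median of the 11 was 1.03. All 4 overlapped between genotypes, and 3.3% of all genes were called higher in this comparison. Only col1a1a kept its call in all 12 omissions. Their summed level was 1163, 2812 and 7602 CPM in non-exercised Gr mutants and 880 to 1241 CPM in non-exercised wild-type fish, and replicate 1 was the mutant library whose collagen sum lay inside the wild-type range. Per 1000 CPM of collagens, lum overlapped between genotypes (6.68 to 11.5 in exercised and 6.58 to 32.8 in non-exercised Gr mutants, against 6.64 to 8.21 in exercised and 7.15 to 15.3 in non-exercised wild-type fish). With exercise in wild-type fish 3 of 11 collagens rose, col11a1b (1.72, adjusted P = 0.0201 in edgeR), col5a1 (1.37, adjusted P = 0.0367) and col1a2 (1.69, adjusted P = 0.0459), with a median of 1.37 beside 0.03 over all genes. Over both genotypes exercise called col11a1b alone (1.43, adjusted P = 0.0439 in edgeR), lost in 10 of 12 omissions. Among all genes 0.76% were called higher there. All 11 collagens had a fold change above 0, with a median of 1.17 beside -0.01 over all genes. At an unadjusted P under 0.05 in edgeR 8 were higher, beside 7.79% of genes, and DESeq2 called 5, beside 4.83% of genes. In wild-type fish, where 0.226% of all genes were called higher, the calls of col5a1 and col1a2 were lost in all 6 omissions and that of col11a1b in 5. There 8 collagens were higher at an unadjusted P under 0.05 in edgeR, beside 7.32% of genes, and DESeq2 called 7, beside 2.71%. In Gr mutants exercise called no collagen in edgeR or DESeq2.

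Of 12 further leucine-rich repeat genes listed beside the members, 7 were tested, and over both exercise levels 2 rose in Gr mutants: ecm2 (11.7 ± 2.01 CPM in exercised and 7.70 ± 2.47 CPM in non-exercised mutants, against 6.39 ± 0.991 and 3.67 ± 1.37 CPM in the matching wild-type fish, SD, n = 3 each, log2 fold change 0.96, adjusted P = 0.0179 in edgeR) and lrrc17 (1.02, adjusted P = 0.0269). Both calls were lost with library totals, and that of lrrc17 in 5 of 12 omissions. Of all genes, 3.3% were called higher there. Asporin (aspn) and osteomodulin (omd), whose genes lie beside those of osteoglycin and ecm2 in mammals, were at 1.43 (adjusted P = 0.0676) and 1.40 (adjusted P = 0.0577) in edgeR. DESeq2 called both of them higher, as it did ecm2 and lrrc17, with 13.3% of all genes called. The others were near 0: podn (podocan) was at 0.00, tsku (tsukushi, which binds signalling ligands in embryos) at -0.15 and chad (chondroadherin) at 0.32. No gene of this list was called with exercise in edgeR, where tsku was at -0.72 (adjusted P = 0.0794) and ecm2, omd and aspn were at 0.70, 1.1 and 0.74 (adjusted P = 0.123, 0.225 and 0.475). There 3 of the 7 had an unadjusted P under 0.05 in edgeR, beside 15.1% of genes. DESeq2 called ecm2 higher and tsku lower, with 4.83% of all genes called. The gene optc had no count in any library.

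Of the enzymes that build the sugar chains few passed the test. Of 23 tested genes of chondroitin, dermatan and keratan sulfate synthesis, 1 rose in Gr mutants over both exercise levels, slc35d1a, a transporter of sugar nucleotides into the secretory pathway (log2 fold change 1.1, adjusted P = 0.0375 in edgeR, lost in 8 of 12 omissions). Of the list 17 of 23 had a fold change above 0, beside 55.3% of genes, with a median of 0.31 beside 0.06 over all genes. At an unadjusted P under 0.05 in edgeR 5 were higher, beside 13.3% of genes. Among all genes 3.3% were called higher. The summed level of the list was 68.1 to 83.9 CPM in exercised and 62.1 to 92.8 CPM in non-exercised Gr mutants, against 67.1 to 69.8 CPM in exercised and 60.9 to 66.3 CPM in non-exercised wild-type fish. The best counted of them were fam20b, chpf2 and dse, with 1249, 1037 and 829 counts in all. Exercise over both genotypes called none of the 23 in edgeR or DESeq2. At an unadjusted P under 0.05 in edgeR there was 1, beside 15.1% of genes. The median was 0.08 and fell below 0 with library totals (-0.11).

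Among growth factors and receptors reported to bind these proteoglycans in mammals, 2 of 19 tested genes rose in Gr mutants over both exercise levels, and neither overlapped between genotypes. Of all genes, 3.3% were called higher there and 1.26% were higher in mutants without overlap. The ligand gene tgfb3 was at 32.7 ± 4.01 CPM in exercised and 40.9 ± 15.3 CPM in non-exercised Gr mutants, against 13.3 ± 3.04 and 14.5 ± 2.77 CPM in the matching wild-type fish (SD, n = 3 each; log2 fold change 1.40, adjusted P = 0.0025 in edgeR). Myostatin b (mstnb), a TGF-beta family inhibitor of muscle growth, was at 102 ± 32.4 and 69.7 ± 18.4 CPM in exercised and non-exercised Gr mutants, against 22.8 ± 3.26 and 26.9 ± 17.7 CPM in the matching wild-type fish (log2 fold change 1.77, adjusted P = 0.013 in edgeR). Both calls were kept in all 12 omissions. The median of the list was 0.23 beside 0.06 over all genes, with 12 of 19 above 0 beside 55.3% of genes. For the mutation over both exercise levels DESeq2 called 3 genes of the list higher and 1 lower, with 13.3% of all genes called. The best counted receptors lrp1ab and kdrl were not called, and exercise over both genotypes called none of the 19 in edgeR or DESeq2. At an unadjusted P under 0.05 in edgeR there were 0, beside 15.1% of genes.

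Within groups no pair of members was found to vary together. Over the deviations of 12 libraries from their group means, 10 pairs of the 5 tested members were correlated. The highest Pearson's r was 0.55 for dcn and prelp (permutation P = 0.0818, Spearman's rho 0.42 with permutation P = 0.26, r 0.41 without the 2 libraries farthest from the median) and the lowest -0.21 for dcn and bgna, and none of the 10 had an adjusted permutation P under 0.05 (lowest 0.409, over all 1296 exchanges of libraries within groups). For lum and its neighbour dcn r was 0.31 (rho 0.41, adjusted permutation P = 0.73, r 0.30 without the 2 libraries farthest from the median of lum). Of 5430 genes with a mean of at least 100 counts per library, those whose deviations were most like the mean deviation of the 5 members over the 12 libraries were si:ch1073-291c23.2 (r 0.93), pcolcea (0.87), which enhances the trimming of procollagen, vdac1 (0.87), enpp2 (0.86) and uqcc2 (0.86), all sharing depth and normalization with the members. Spearman's rho of these 5 was 0.80 to 0.94, and r was 0.64 to 0.82 without the 2 libraries farthest from the median. The profile owes much to bgna, whose 3 counts in replicate 2 of the non-exercised Gr mutants gave a deviation of -2.74 on the log2 scale there, beside a mean of -0.08 for the other 4 members. Against the mean of those 4 alone, a choice made after seeing the data, r was 0.61 for si:ch1073-291c23.2, 0.69 for pcolcea, 0.64 for vdac1, 0.79 for enpp2 and 0.36 for uqcc2.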

How the data were processed

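Single-end reads of 12 white muscle libraries were aligned by the authors with TopHat2 2.0.5 to the zebrafish build GRCz10, secondary alignments were removed with SAMtools 0.1.18, and reads per gene were counted with HTSeq 0.5.3p9. The deposited values used here are these raw counts, from 4 tables of 6 libraries each, with 0 sample columns left unused. The library kit does not mark strand, so reads of overlapping genes cannot be assigned by strand. The authors' own normalized means, fold changes and P-values in the same tables were not used.

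Of 31962 genes, 4927 had no count. Differences were tested with edgeR 4.0.16 (quasi-likelihood, TMM factors, R 4.3.3, limma 3.58.1), two-sided, after genes that did not reach 10 counts in 3 or more libraries of the comparison had been left out. P-values were adjusted by Benjamini-Hochberg over all genes tested, at a threshold of 0.05. The 4 pairwise comparisons used 6 libraries each, while the interaction and the additive model of genotype and exercise used 12. A standard error is the absolute log2 fold change divided by the root of F. The smallest exact permutation P for 3 against 3 libraries is 0.1, so none was run. Alternatives were DESeq2 size factors, DESeq2 1.42.0, no filter, the sample number as a block, all 12 libraries together, leaving out each library and, chosen after seeing the data, library totals, marker sums without postnb and member means without bgna. The steps were tested on simulated data.

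Named genes were all members and, of the lists of related genes, those called in any comparison and the 3 with most counts. Of the cell type markers, the called fibroblast and fast muscle genes were named, and these, aspn, omd, chad, epyc, optc and the ogn rows were added after their values were seen. The members and lists were chosen with earlier results of these data known. Levels are not compared between genes, since transcript lengths were not used here, and no sequence was used. Correlations use deviations of log2 CPM (prior count 2) from group means. Figures were drawn with matplotlib 3.10.9, and summaries were made in Python 3.11.15 with scipy 1.17.1, pandas 2.3.3 and numpy 2.4.6. TMM factors were 0.789 to 0.985 in exercised Gr mutants, 0.779 to 1.40 in non-exercised Gr mutants, 0.854 to 1.10 in exercised and 0.878 to 1.22 in non-exercised wild-type fish. Intervals on counts cover counting error only.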

Additional observations from a re-analysis of the deposited data

How the results depend on the processing

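The calls of lum and dcn over both exercise levels were kept under every alternative and every omission of a library (log2 fold changes 1.49 to 1.69 and 0.95 to 1.14 over the omissions), with 2 members called each time. Over single genes, 859 alternative values kept their direction and their side of the threshold, 183 lost the call, 16 gained one and 34 turned direction, and the cause was not tested. Genes past the threshold were 54 for exercise in wild-type fish against 395 with DESeq2, 142 without the filter and 4 with the replicate block, and members 0 against 2 with DESeq2 and 1 without the filter. For exercise in Gr mutants 0 genes became 5 with library totals, 105 with DESeq2, 4 without the filter and 6 with all 12 libraries. For the mutation in exercised fish 426 genes became 944 with DESeq2, 223 with the block and 267 with all 12 libraries, and 1 member became 0 with library totals, 2 with DESeq2 and 0 with the block. In non-exercised fish 35 genes became 56 with library totals, 726 with DESeq2, 126 without the filter, 0 with the block and 184 with all 12 libraries, and 1 member became 2 with DESeq2, 0 with the block and 2 with all 12 libraries. The interaction gave 0 genes against 32 with DESeq2. Exercise over both genotypes gave 199 genes against 52 with library totals, 776 with DESeq2, 104 without the filter and 90 with the block, and 2 members against 0, 2, 1 and 1. The mutation over both exercise levels gave 1274 genes against 689, 2128 and 842 with library totals, DESeq2 and the block.

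With single libraries left out, genes called ranged from 7 to 32 and 0 to 58 for exercise in wild-type fish and Gr mutants, 6 to 508 and 0 to 544 for the mutation in exercised and non-exercised fish, 0 to 0 for the interaction, 32 to 311 for exercise over both genotypes and 639 to 1544 for the mutation over both exercise levels. Members called ranged from 0 to 0, 0 to 0, 0 to 0, 0 to 1, 0 to 0, 0 to 2 and 2 to 2 in the same order. Same-numbered libraries of different groups correlated at -0.245 to 0.165 over 18 pairs, and 1 exceeded 0.1. Differently numbered libraries were not correlated for comparison, so these values do not settle whether the replicate numbers pair libraries. Library totals lowered the share of higher calls to 45.9% from 61.1% for exercise in wild-type fish, to 34.6% from 61.3% over both genotypes, to 11.9% from 21.6% for the mutation in exercised fish and to 23.1% from 41.6% over both exercise levels.

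Turned directions all belonged to uncalled values. With library totals they were dcn -0.096, bgnb -0.0742 and bgna -0.00969 for exercise in mutants, and bgna -0.0986, 0.0206, -0.118 and -0.0395 for the mutation in exercised fish, in non-exercised fish, the interaction and the mutation over both exercise levels. With the block they were OGN (1 of 2) -0.0485 for the mutation in non-exercised fish and bgna -0.0371 over both exercise levels. With libraries left out, bgna ranged from -0.35 to 0.42 and -0.20 to 1.19 for exercise in wild-type fish and mutants, -0.13 to 0.63, -0.87 to 0.50 and -0.29 to 0.29 for the mutation in exercised fish, in non-exercised fish and over both, and -0.35 to 1.01 for the interaction. In the same omissions bgnb ranged from -0.0237 to 0.51 for exercise in mutants, and OGN (1 of 2) from -0.78 to 0.75 for the mutation in non-exercised fish, -0.53 to 0.14 over both exercise levels and -1.11 to 0.42 for the interaction. Without postnb in the marker sum, the lowest mutant ratio of lum per 1000 CPM of markers minus the highest wild-type ratio was -19.6 in place of 13.0. Depth limits kera, fmoda and fmodb, none of which reached 10 counts in a library.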
